A study of Mus musculus with 8 samples.

Results

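The 8 genes described here, Fads1, Fads2, Fads3, Scd1, Scd2, Elovl1, Elovl5 and Elovl6, encode fatty acid desaturases and elongases. They are 8 of the 32285 genes in the single-cell count matrices and were picked by symbol, with earlier results of these libraries on feeding and on cell type known. Their levels were read from 6 lineages of inguinal white adipose tissue (iWAT), each gated on marker genes. The contrast between feeding groups was in view when the genes were picked, so their differences between the groups are given as a description. The calls of the fit over all genes are printed for them only as counts, beside the share of all genes called, and support nothing. The comparisons of lineages also used cell type results known beforehand, so their p-values describe the spread between libraries and are not independent support.

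Stromal vascular fraction (SVF), the cells left after collagenase digestion and removal of floating adipocytes, was profiled from iWAT of C57BL/6 mice (C57BL/6J males in the study's methods) in 8 droplet libraries. Mice of the Ad-Lib group (4 libraries, numbered 1, 3, 5 and 7) ate without restriction, and mice of the TAN group (4 libraries, numbered 2, 4, 6 and 8) had food in 2 windows of the night. The labels give an age of 8 weeks and carry no other allele or agent, whereas the study's own methods describe mice kept on these regimens for longer. The labels do not say whether the libraries of a group came from separate mice, whereas the study describes its replicates as separate animals.

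The libraries held 4475 to 8021 barcodes and 25320800 to 37140950 unique molecular identifiers (UMIs), and 3717 to 5654 cells per library were kept. Among kept cells the median mitochondrial share was 1.76 to 2.38% in the Ad-Lib libraries and 2.69 to 3.64% in the TAN libraries, without overlap, and the part of this gap in the results was not tested. Any pair of libraries shared 5 to 16 barcodes. Progenitor cells (gated on Pdgfra), endothelial cells (Pecam1), macrophages (C1qa), T cells (Cd3e) and B cells (Cd79a) each led in their own marker list. Adipocyte-rich droplets, gated on Adipoq and Car3, numbered 55 to 193 per library and held RNA of several cell types. Their adipocyte markers (Plin1, Cidec, Lipe and others) summed to 16168 to 22398 CPM, the UMIs of a gene per 1000000 UMIs of the gated sum, in the Ad-Lib libraries, beside 633 to 1820 CPM of endothelial markers and 594 to 5983 CPM of progenitor markers.

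Desaturases place double bonds in fatty acyl chains, taking electrons from cytochrome b5, and elongases run the first, rate-setting condensation of the cycle that lengthens acyl chains in the endoplasmic reticulum. Fads1 and Fads2 act in turn with Elovl5 to turn essential fatty acids from food into long polyunsaturated fatty acids. Scd1 and Scd2 make monounsaturated from saturated fatty acids, and Elovl6 lengthens palmitate, the product of fatty acid synthase, so that these enzymes finish the fatty acids that adipocytes make from carbohydrate. Elovl1 makes the very long saturated chains of sphingolipids, and Fads3 places a double bond in the sphingoid base of ceramides.

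The Fads genes lie together on chromosome 19 (GRCm38). Fads3 spans 10041569 to 10060110 on the plus strand, Fads2 10062765 to 10101746 on the minus strand and Fads1 10182888 to 10196877 on the plus strand. Scd2 (44293674 to 44306864, plus strand) and Scd1 (44394455 to 44407879, minus strand) lie farther along the same chromosome, in a tandem family whose 3′ reads may in part be shared. Elovl6 lies on chromosome 3 (129532355 to 129638495), Elovl1 on chromosome 4 (118428093 to 118432953) and Elovl5 on chromosome 9 (77917364 to 77984519), all on the plus strand.

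The 8 members had distinct distributions over the lineages. Progenitors held the highest level of Fads1, Fads2 and Scd2. Adipocyte-rich droplets held the highest mean of Fads3, Scd1 and Elovl6, the last not beyond its spread, and endothelial cells held the highest of Elovl5 and of Elovl1, the last with little contrast. Against the mean of the other lineages, in an edgeR quasi-likelihood fit with the library as a block, 6 of the 8 members were called higher in progenitors, 5 in adipocyte-rich droplets, 3 in endothelial cells, 1 in macrophages, 1 in B cells and 0 in T cells. Of all 12271 genes tested, 28.8%, 22.6%, 24.9%, 26.8%, 21.2% and 23.6% were called higher in those lineages, in the same order. In T cells Elovl5 was the only member above the mean of the others (log2 0.24 ± 0.09 SE, adjusted p = 0.0230), which was under 1.5-fold.

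**Figure D1:**
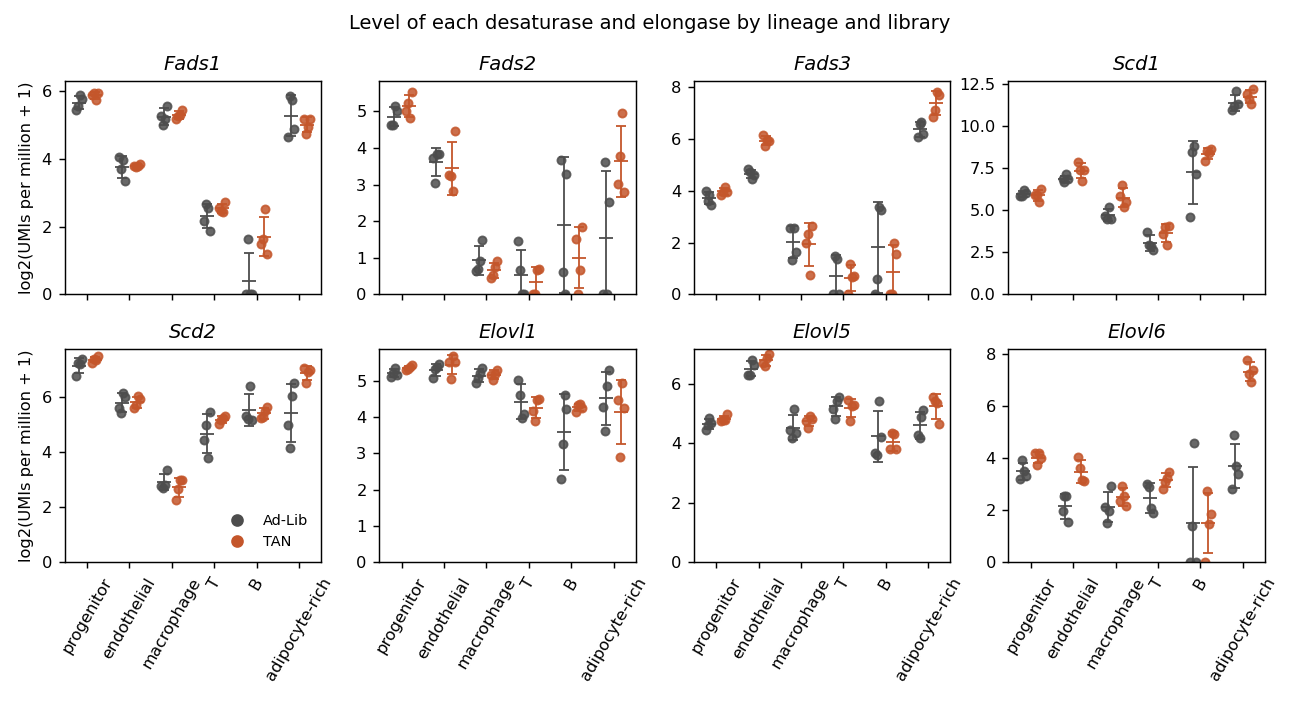
Each panel plots 1 gene, with log2(CPM + 1) per library on the y axis and the 6 lineages on the x axis. Points are libraries, grey for Ad-Lib and orange for TAN, and bars give the mean and SD. Scd1 reached 2009 to 4654 CPM in adipocyte-rich droplets, and Elovl1 had lineage means from 15.8 to 40.8 CPM.

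Fads1, the delta-5 desaturase that completes arachidonic acid, averaged 54.2 ± 6.74 CPM in progenitors (SD, n = 8 libraries), 38.1 ± 4.83 CPM in macrophages and 36.0 ± 12.1 CPM in adipocyte-rich droplets. Endothelial cells followed with 12.9 ± 1.89 CPM, T cells with 4.46 ± 0.976 CPM and B cells with 1.51 ± 1.60 CPM. Neighbouring lineages in this order were compared within libraries by a two-sided exact sign-flip test, adjusted over the 40 neighbour pairs of the 8 members, and 16 pairs passed at an adjusted p under 0.05. For Fads1 all steps passed (adjusted p = 0.0208 to 0.0391) except that from macrophages to adipocyte-rich droplets (adjusted exact p = 0.535). The step from T to B cells rests in part on counts of 0 in B cells of Ad-Lib 1, 5 and 7. These allow up to 11.7, 14.0 and 26.2 CPM, above the T cell levels there of 3.47, 4.85 and 2.68 CPM. That step therefore depends on how counts of 0 are treated.

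Fads2, the delta-6 desaturase that opens the pathway to arachidonic acid, had a narrower range of cells. It averaged 31.7 ± 7.22 CPM in progenitors and 11.3 ± 4.88 CPM in endothelial cells, and the step between them passed (adjusted exact p = 0.0208, higher in 8 of 8 libraries). In macrophages, whose Fads1 level stood next to that of progenitors, Fads2 averaged 0.778 ± 0.445 CPM, from 19 UMIs over the 8 libraries. Fads1 was called higher in macrophages than in the mean of the other lineages (log2 1.72 ± 0.09 SE, edgeR adjusted p = 5.26e-21), while the fitted difference of Fads2 there was log2 -2.38 ± 0.41 SE. Fads2 passed the filter on low counts in this fit through other lineages, so no p is given for it. Within endothelial cells Fads2 averaged 56.4 ± 22.8 CPM in arterial cells and 8.54 ± 3.23 CPM in capillary cells.

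Fads1 and Fads2 had overlapping feeding groups in progenitors, where both were highest. There Fads1 measured 42.8, 46.2, 58.1 and 53.9 CPM in the Ad-Lib libraries and 58.5, 60.4, 52.4 and 61.2 CPM in the TAN libraries, a fitted log2 change (TAN over Ad-Lib) of 0.20 ± 0.08 SE. Fads2 there measured 23.6, 23.9, 34.4 and 31.4 CPM in the Ad-Lib and 31.1, 36.4, 27.1 and 45.4 CPM in the TAN libraries (log2 change 0.30 ± 0.14 SE). By progenitor subtype, the groups of Fads2 overlapped in Icam1 progenitors, where it was higher (31.4 to 46.3 CPM over the Ad-Lib and 34.4 to 59.3 CPM over the TAN libraries), and in F3 progenitors (6.74 to 23.9 and 4.45 to 36.3 CPM). They did not overlap in Dpp4 progenitors (13.2 to 14.4 and 17.9 to 25.6 CPM). The share of all genes without overlap was not computed for subtypes, and nothing is read from this. In macrophages the log2 change of Fads1 was 0.05 ± 0.12 SE, and in endothelial cells it was 0.03 ± 0.17 SE.

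Fads3, the sphingoid base desaturase, had another order than Fads1 and Fads2. It was highest in adipocyte-rich droplets (128 ± 60.1 CPM), next in endothelial cells (42.7 ± 20.2 CPM) and then in progenitors (13.6 ± 2.24 CPM), with the same order in 8 of 8 libraries. The endothelial level of Fads3 was in view when the genes were picked, so no p is given for these steps. Macrophages (3.30 ± 1.72 CPM), B cells (2.93 ± 3.90 CPM) and T cells (0.738 ± 0.739 CPM) held little, and neither step between neighbours passed (adjusted exact p = 0.356 and 0.340). Macrophages were not tested against T cells. Against the mean of the other lineages Fads3 was higher by 2.60 ± 0.16 SE on the log2 scale in endothelial cells, again with no p.

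In endothelial cells Fads3 measured 27.6, 25.3, 21.1 and 23.8 CPM in the Ad-Lib libraries and 70.1, 52.0, 61.8 and 59.7 CPM in the TAN libraries. Every TAN library stood above every Ad-Lib library, and the group means were 24.4 ± 2.72 and 60.9 ± 7.43 CPM (SD, n = 4 each). The fitted log2 change was 1.34 ± 0.13 SE, a 2.53-fold difference, from 421 UMIs in the Ad-Lib and 1099 UMIs in the TAN libraries. No cell gave more than 6 of these UMIs. Leaving out each library in turn kept the log2 change between 1.25 and 1.42.

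The difference was present in both larger endothelial subtypes. Capillary cells (marked by Gpihbp1, Rgcc and Car4; 616 to 1036 cells per library) held 25.9, 23.6, 20.3 and 18.9 CPM of Fads3 in Ad-Lib and 70.5, 57.5, 69.7 and 62.5 CPM in TAN. Arterial cells (marked by Gja5, Sox17 and Hey1; 23 to 48 cells per library) held 66.8, 50.4, 50.3 and 68.2 CPM in the Ad-Lib and 104, 99.7, 158 and 114 CPM in the TAN libraries. The groups did not overlap in either subtype. The share of all genes without overlap was not computed for subtypes, so nothing further is read from this. Capillary cells were most of the endothelial cells (854 of 950 in Ad-Lib 1), so their values largely repeat the endothelial ones. In endothelial cells outside the subtypes the groups overlapped, with 8.50, 16.5, 5.75 and 15.9 CPM in the Ad-Lib and 34.7, 4.11, 3.37 and 3.94 CPM in the TAN libraries, from 1 to 5 UMIs each. Venous cells held 11.7 to 65.6 CPM in the Ad-Lib libraries from 1 to 5 UMIs, and 0 to 26.4 CPM in the TAN libraries from 0 to 5 UMIs. Whether the change differed between subtypes was not tested.

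Over all 8 libraries of both feeding groups, Fads3 was higher in arterial than in capillary cells of the same library, in 8 of 8 libraries. The log2 difference, capillary minus arterial, was -1.10 ± 0.384 (SD, two-sided exact sign-flip p = 0.00781, the smallest that 8 libraries allow, and 0.0234 adjusted over 3 pairs). Venous cells numbered 10 to 24 per library. Their comparison with arterial cells passed (adjusted exact p = 0.0352), a call lost in 8 of the 11 alternatives tried, with an adjusted p of up to 0.141. TAN 6 and TAN 8 had no venous Fads3 UMI, where a count of 0 allows up to 50.5 and 21.6 CPM, so the size of this difference rests on the pseudocount and is not given. Lymphatic cells numbered 9 over all libraries and were not compared.

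Endothelial cells carried adipocyte RNA, and the Fads3 level was set beside it in 2 ways chosen after the data were seen. The adipocyte markers with Adipoq and Car3 summed to 933 to 1123 CPM in the Ad-Lib and 752 to 1297 CPM in the TAN endothelial libraries (exact permutation p = 0.886 over 8 libraries). Multiplying the Fads3 level of adipocyte-rich droplets by the ratio of these sums, library by library, gave 2.44 ± 0.399 CPM in the Ad-Lib and 5.01 ± 0.431 CPM in the TAN libraries. In endothelial cells with no Adipoq or Car3 UMI (293 to 438 per library) Fads3 measured 26.2, 25.8, 16.5 and 26.8 CPM in the Ad-Lib and 69.1, 38.1, 65.1 and 55.0 CPM in the TAN libraries, again without overlap. The log2 change there was 1.31 ± 0.21 SE, although on this smaller set of cells the gene was no longer among those called.

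Other marker lists also moved in the endothelial gate. Endothelial markers summed to 5469 to 6436 CPM in Ad-Lib and 4404 to 5372 CPM in TAN (exact permutation p = 0.0286, the smallest that 4 against 4 libraries allow), and the Icam1 progenitor list to 1511 to 1774 CPM and 1056 to 1469 CPM. The Dpp4 progenitor list moved the other way, from 254 to 274 CPM in Ad-Lib and from 314 to 373 CPM in TAN. T cell markers ranged from 12.7 to 162 CPM in Ad-Lib and from 56.4 to 576 CPM in TAN, while Fads3 in T cells was at 0 to 1.78 CPM. The part of these lists in the result was not tested.

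**Figure D2:**
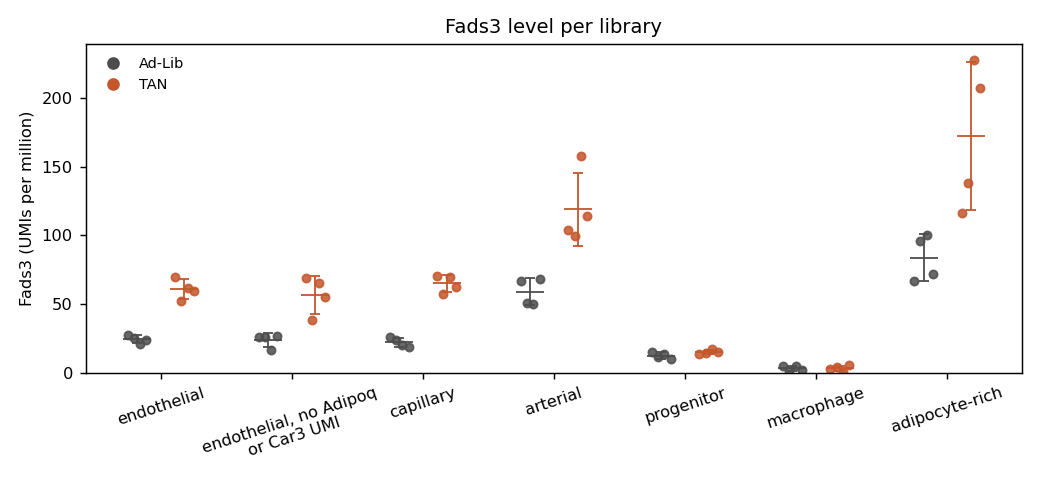
Fads3 level in CPM on the y axis for each library (points, grey for Ad-Lib and orange for TAN), with the mean and SD, in endothelial cells, endothelial cells with no Adipoq or Car3 UMI, 2 endothelial subtypes and 3 other lineages. The groups are separate in the 4 endothelial sets, which have cells in common, and in adipocyte-rich droplets, and overlap in progenitors and macrophages.

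Adipocyte-rich droplets held Fads3 at 67.0, 96.2, 100 and 71.9 CPM in the Ad-Lib and 116, 138, 228 and 208 CPM in the TAN libraries, again with no overlap (log2 change 0.92 ± 0.25 SE). These values came from 68 and 134 UMIs. The endothelial level of Fads3, scaled in the same way to these droplets by the endothelial markers, came to 4.94 ± 2.16 CPM for the Ad-Lib libraries and 13.6 ± 4.29 CPM for the TAN libraries. In progenitors Fads3 measured 9.89 to 15.1 CPM in Ad-Lib and 13.3 to 17.0 CPM in TAN (log2 change 0.20 ± 0.14 SE), and in macrophages the log2 change was -0.01 ± 0.44 SE. Whether the change in endothelial cells differed from that in other lineages was not tested.

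The promoter windows of Fads3 and Elovl6, the members with separate feeding groups in endothelial cells and adipocyte-rich droplets, are shown for context, since these data do not measure binding or chromatin. Of the 8 members, 5 had a window in the RefSeq table (GRCm38.p6), which runs from 250 bases before to 50 bases after the annotated start. Motifs were searched on both strands. CCAAT, the NF-Y box, was in 37.4% of all 32851 windows, GGGCGG, the Sp1 box, in 35.7%, CACGTG, the E box, in 7.15% and TCACNCCAC, the core of a sterol response element, in 1.24%. Capitals below mark matches to any of these, which do not overlap each other in these 2 windows. The first sequence is chr19:10041298-10041597 and the other is chr3:129532136-129532435, both on the plus strand, 5′ to 3′.
Fads3: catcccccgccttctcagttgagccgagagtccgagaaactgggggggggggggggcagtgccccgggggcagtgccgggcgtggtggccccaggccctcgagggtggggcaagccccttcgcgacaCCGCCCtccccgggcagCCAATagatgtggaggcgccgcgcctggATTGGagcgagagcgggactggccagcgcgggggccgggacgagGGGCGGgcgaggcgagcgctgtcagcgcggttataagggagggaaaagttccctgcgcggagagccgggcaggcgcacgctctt
Elovl6: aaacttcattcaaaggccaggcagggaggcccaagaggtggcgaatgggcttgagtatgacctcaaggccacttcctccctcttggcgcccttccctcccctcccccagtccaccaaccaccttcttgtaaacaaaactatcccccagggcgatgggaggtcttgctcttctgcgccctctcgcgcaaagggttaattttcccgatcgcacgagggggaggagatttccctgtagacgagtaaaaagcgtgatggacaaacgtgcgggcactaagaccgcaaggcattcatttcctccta
The Fads3 window held 2 CCAAT boxes and 2 GGGCGG boxes, whereas the Elovl6 window held no match to the 4 motifs. Their GC content was 73.0% and 55.7%.

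Scd1, the stearoyl-CoA desaturase of adipocytes, sebaceous glands and liver, was highest in adipocyte-rich droplets at 3146 ± 975 CPM. B cells stood second with 285 ± 141 CPM, and Scd1 was called higher in B cells than in the mean of the other lineages (log2 1.69 ± 0.15 SE, edgeR adjusted p = 2.45e-13). B cells did not differ from endothelial cells beyond the spread (142 ± 44.0 CPM, adjusted exact p = 0.289, higher in 7 of 8 libraries). The exception was Ad-Lib 1, with 21 B cells and 6 Scd1 UMIs. In B cells the scaled adipocyte level was 13.6 CPM for Ad-Lib and 12.4 for TAN, against measured means of 237 and 333 CPM. T cells, gated in the same way, held 9.87 ± 4.16 CPM.

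In adipocyte-rich droplets Scd1 measured 2009, 2325, 4247 and 2517 CPM in the Ad-Lib and 3808, 3066, 2540 and 4654 CPM in the TAN libraries (log2 change 0.32 ± 0.24 SE), with overlapping groups. In macrophages it measured 24.5, 21.5, 35.6 and 21.2 CPM in the Ad-Lib and 55.8, 89.3, 35.5 and 43.1 CPM in the TAN libraries. The highest Ad-Lib and the lowest TAN library met at nearly equal values. The fitted log2 change was 1.18 ± 0.24 SE, and 1 cell of TAN 4 gave 55 of its 200 UMIs. The adipocyte markers with Adipoq and Car3 summed to 155 to 224 CPM in the Ad-Lib and 159 to 362 CPM in the TAN macrophages (exact permutation p = 0.229 over 8 libraries, 0.857 adjusted over 6 lineages), and the scaled adipocyte level came to 14.3 ± 6.42 CPM of Scd1 in Ad-Lib and 27.1 ± 10.6 CPM in TAN. In macrophages with no Adipoq or Car3 UMI Scd1 averaged 13.6 ± 2.28 and 20.5 ± 2.23 CPM, with a log2 change of 0.61.

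Endothelial Scd1 measured 113, 101, 138 and 114 CPM in the Ad-Lib and 230, 166, 107 and 168 CPM in the TAN libraries (log2 change 0.57 ± 0.19 SE), and the groups overlapped. The scaled adipocyte level was 80.3 CPM in the Ad-Lib and 109 CPM in the TAN libraries, and in endothelial cells with no Adipoq or Car3 UMI Scd1 averaged 41.8 ± 16.1 and 50.7 ± 18.8 CPM. In progenitors the log2 change was -0.09 ± 0.13 SE. There Scd1 averaged 97.3 ± 18.9 CPM in Dpp4 progenitors and 37.8 ± 7.97 CPM in Icam1 progenitors.

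Scd2, the isoform of developing skin and brain, had another order. Progenitors led with 153 ± 20.9 CPM, ahead of adipocyte-rich droplets with 83.8 ± 43.4 CPM in 8 of 8 libraries (adjusted exact p = 0.0208). Endothelial cells (55.8 ± 9.97 CPM), B cells (45.1 ± 16.3 CPM) and T cells (31.2 ± 9.83 CPM) followed, and no step from adipocyte-rich droplets down to T cells passed (adjusted exact p = 0.356, 0.0551 and 0.0893). Macrophages held the least at 6.21 ± 1.59 CPM, below T cells in 8 of 8 libraries (adjusted exact p = 0.0208). Between feeding groups Scd2 measured, in adipocyte-rich droplets, 30.4, 17.0, 64.3 and 91.1 CPM in the Ad-Lib and 134, 90.0, 119 and 125 CPM in the TAN libraries (log2 change 1.12 ± 0.36 SE), where the ranges met at about 90 CPM. This change ran from 0.58 with cells of several gate genes kept to 1.66 with the gate on adipocyte-rich droplets at 1%. With 5 and 3 UMIs in Ad-Lib 1 and Ad-Lib 3, Scd2 passed the filter on low counts in these droplets through the TAN libraries. In endothelial cells Scd2 ranged from 42.0 to 69.4 CPM over the Ad-Lib and from 47.9 to 65.0 CPM over the TAN libraries.

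Elovl1 was present in all 6 lineages, with means from 15.8 to 40.8 CPM. It averaged 40.8 ± 6.10 CPM in endothelial cells, 37.9 ± 3.04 CPM in progenitors and 34.6 ± 3.42 CPM in macrophages, and neither step between these neighbours passed (adjusted exact p = 0.289 and 0.0994). Endothelial cells were not tested against macrophages. Adipocyte-rich droplets (21.4 ± 10.4 CPM) were lower than macrophages in 8 of 8 libraries (adjusted exact p = 0.0208). Its log2 change was 0.12 ± 0.07 SE in progenitors, 0.18 ± 0.12 SE in endothelial cells and 0.04 ± 0.11 SE in macrophages.

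Elovl5, the elongase of polyunsaturated chains, was highest in endothelial cells at 100 ± 17.2 CPM and second in T cells at 36.5 ± 7.02 CPM (higher in 8 of 8 libraries, adjusted exact p = 0.0208). The other lineages lay between 18.2 and 31.0 CPM and no neighbouring pair among them passed. Against the mean of the other lineages the endothelial log2 difference was 1.77 ± 0.07 SE (edgeR adjusted p = 3.61e-27). Endothelial Elovl5 measured 76.7, 77.9, 110 and 97.5 CPM in the Ad-Lib and 102, 94.7, 115 and 126 CPM in the TAN libraries, with overlapping groups (log2 change 0.30 ± 0.11 SE).

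Elovl6, which lengthens palmitate to stearate, had the largest fitted change among the members tested. In adipocyte-rich droplets it measured 6.09, 28.3, 12.1 and 9.59 CPM in the Ad-Lib and 218, 148, 119 and 166 CPM in the TAN libraries. The groups did not overlap, with means of 14.0 ± 9.83 and 163 ± 41.7 CPM and a fitted log2 change of 3.53 ± 0.39 SE. Over both groups the droplets stood first among the lineages, but their step to progenitors did not pass (adjusted exact p = 0.0781, higher in 7 of 8 libraries), and in the Ad-Lib libraries progenitors held 8.23 to 14.3 CPM. The Ad-Lib values rest on 1 to 5 UMIs per library (11 in all) and the TAN values on 12 to 62, so that the gene passed the filter on low counts through the TAN libraries. At most 6 UMIs came from 1 droplet, and leaving out each library in turn kept the change between 3.31 and 4.05 on the log2 scale.

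Elsewhere Elovl6 was low. Endothelial libraries held 2.88, 4.86, 4.85 and 1.93 CPM in the Ad-Lib and 15.7, 11.2, 7.86 and 7.60 CPM in the TAN libraries, without overlap (log2 change 1.59 ± 0.34 SE). With 7 UMIs in Ad-Lib 7, Elovl6 passed the filter on low counts in endothelial cells through the TAN libraries. The scaled adipocyte level there was 0.399 ± 0.265 CPM in the Ad-Lib and 5.23 ± 2.58 CPM in the TAN libraries. In endothelial cells with no Adipoq or Car3 UMI Elovl6 measured 0.812 to 7.57 CPM in Ad-Lib and 3.42 to 6.79 CPM in TAN, with overlapping groups. Progenitors held 8.23, 14.3, 10.4 and 9.05 CPM in the Ad-Lib and 17.1, 12.2, 17.2 and 15.1 CPM in the TAN libraries (log2 change 0.54 ± 0.17 SE), where 1 Ad-Lib library lay above 1 TAN library. Icam1 progenitors alone held 6.40 to 10.6 CPM in Ad-Lib and 11.7 to 17.8 CPM in TAN. The groups overlapped in Dpp4 progenitors (9.94 to 20.1 CPM in Ad-Lib and 13.6 to 17.9 CPM in TAN). They also overlapped in F3 progenitors (3.20 to 7.86 and 0 to 10.4 CPM). For subtypes the share of all genes without overlap was not computed, so nothing is read from the Icam1 values.

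**Figure D3:**
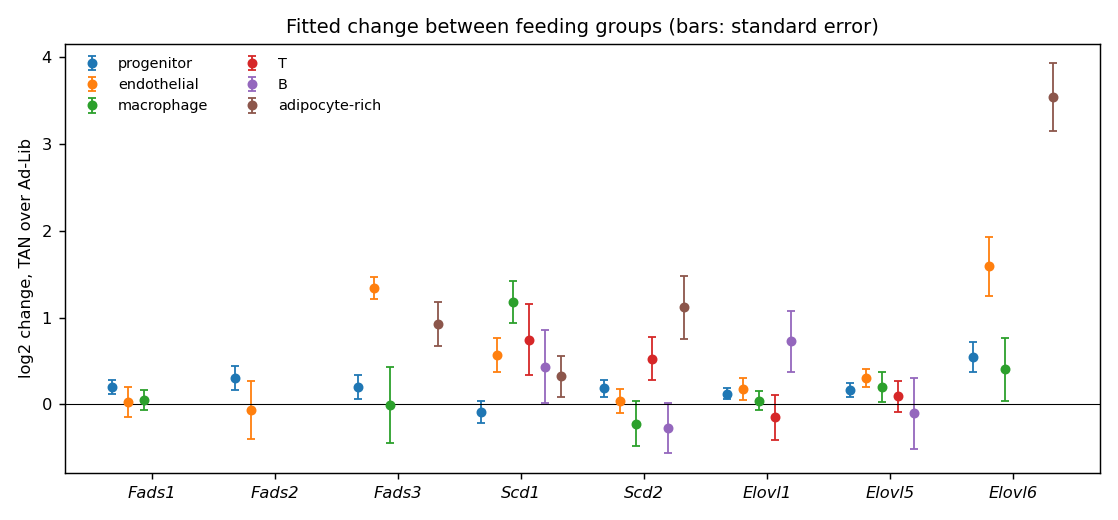
Fitted log2 change of each member, TAN over Ad-Lib, on the y axis, with 1 coloured point per lineage in which the gene passed the filter on low counts and its standard error as a bar. Elovl6 in adipocyte-rich droplets (3.53), Elovl6 in endothelial cells (1.59) and Fads3 in endothelial cells (1.34) lie highest.

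All 8 members passed the filter on low counts in progenitors and in endothelial cells, 7 in macrophages (not Fads2), and 4 each in T cells, B cells and adipocyte-rich droplets. In T and B cells the 4 were Scd1, Scd2, Elovl1 and Elovl5, and in adipocyte-rich droplets Fads3, Scd1, Scd2 and Elovl6. At an edgeR adjusted p under 0.05 and 1.5-fold, the count was 1 of 8 in endothelial cells (Fads3), where 0.796% of all 11439 genes passed, 1 of 7 in macrophages (Scd1), where 0.405% passed, and 1 of 4 in adipocyte-rich droplets (Elovl6), where 1.79% passed. It was 0 in progenitors (0.748% of genes), T cells (4.53%) and B cells (0%), where 3, 0 and 0 members had an unadjusted p under 0.05 and DESeq2 called none. All the members called were higher in TAN, a direction taken by 0.306% of genes in endothelial cells, 0.142% in macrophages, 1.34% in adipocyte-rich droplets, 0.263% in progenitors, 1.16% in T cells and 0% in B cells. No member was called lower, against 0.49%, 0.263%, 0.458%, 0.485%, 3.38% and 0% of genes in the same order. Every TAN library lay above every Ad-Lib library for 2 members in endothelial cells (3.01% of genes) and 2 in adipocyte-rich droplets (5.46%), and for 0 members in the other lineages (4.33% in progenitors, 2.4% in macrophages, 3.37% in T cells and 1.3% in B cells). No member had every TAN library below every Ad-Lib library, against 2.57% of genes in progenitors, 5.33% in endothelial cells, 2.91% in macrophages, 7.33% in T cells, 0.103% in B cells and 3.13% in adipocyte-rich droplets. The members were chosen with this contrast known, endothelial Fads3 among the results in view. Some passed the filter through the TAN libraries, among them Elovl6 in adipocyte-rich droplets and endothelial cells and Scd2 in adipocyte-rich droplets. For these reasons nothing is read from these counts.

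The other genes of the pathway fell into 7 lists of 53 genes, of which fatty acid synthesis held most of the calls. In adipocyte-rich droplets 6 of its 7 genes were called higher in TAN, of 7 tested, where 1.34% of all genes were, with a median log2 change of 1.46 against 0.00 over all 2620 genes. The lists were chosen with earlier results of these data known. The counts and p-values of pathway genes, here and below, therefore describe these libraries and are not independent support. Acly, which makes cytosolic acetyl-CoA from citrate, rose from 123 ± 49.6 to 854 ± 93.9 CPM (log2 change 2.73 ± 0.22 SE, edgeR adjusted p = 1.47e-05). Me1, a source of NADPH, rose by 2.31 ± 0.21 (adjusted p = 1.84e-05), Acaca, acetyl-CoA carboxylase, by 1.65 ± 0.22 (adjusted p = 0.000794) and Fasn, fatty acid synthase, by 1.46 ± 0.23 (adjusted p = 0.00251), all on the log2 scale. Slc25a1, the citrate carrier, rose by 1.46 ± 0.26 (adjusted p = 0.00609). Of 5 regulators tested, Thrsp, a lipogenic nuclear protein, rose by 1.60 ± 0.23 (adjusted p = 0.00143). Insig1, which retains SREBP in the endoplasmic reticulum, had a fitted change of 1.39 ± 0.30. With 4 UMIs in its lowest Ad-Lib library, Insig1 passed the filter on low counts through the TAN libraries. Its call is not read as support and no p is given. The sixth synthesis gene called was Acss2, which activates acetate, at 42.7 ± 18.9 CPM in the Ad-Lib and 121 ± 33.9 CPM in the TAN libraries. With as few as 3 UMIs in an Ad-Lib library it passed the filter on low counts through the TAN libraries, so its call is not read as support and no p is given. None of the 9 genes tested in the other 5 lists passed, among them partners of the elongation cycle and electron donors of the desaturases.

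**Figure D4:**
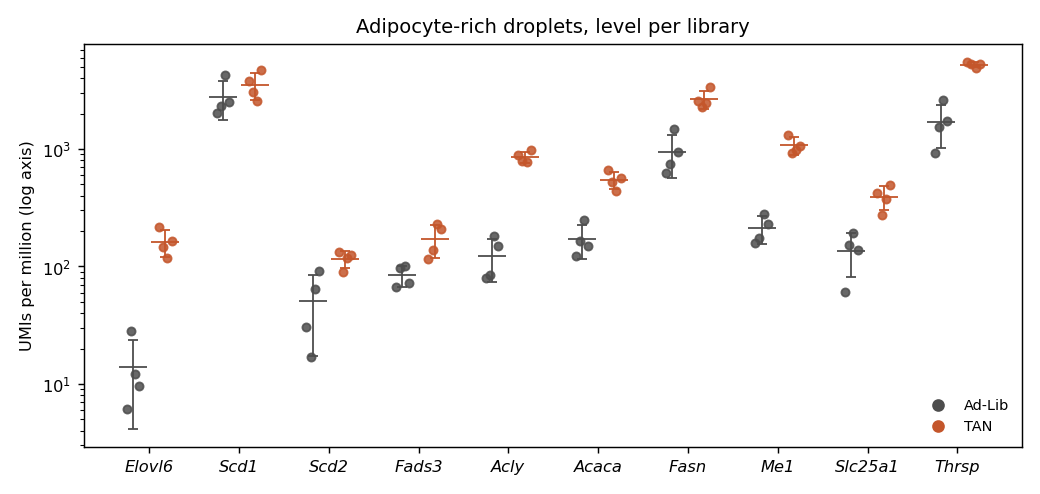
Level per library in adipocyte-rich droplets in CPM (log axis) for 4 members, 5 genes of fatty acid synthesis and the regulator Thrsp, with points for libraries, grey for Ad-Lib and orange for TAN, and bars for the mean and SD. Elovl6, Fads3, Acly, Acaca, Fasn, Me1, Slc25a1 and Thrsp have separate groups, while those of Scd1 and Scd2 overlap.

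In endothelial cells 4 of 7 synthesis genes were called higher in TAN, where 0.306% of all genes were, and of these Fasn alone was still called with cells holding an Adipoq or Car3 UMI left out. Me1 rose from 10.6 ± 1.46 to 49.0 ± 16.4 CPM (log2 change 2.26 ± 0.23 SE, edgeR adjusted p = 0.00153), Fasn from 29.5 ± 5.97 to 87.7 ± 24.9 CPM (1.62 ± 0.20, adjusted p = 0.00386), Acaca from 18.9 ± 1.95 to 35.4 ± 3.36 CPM (0.94 ± 0.11, adjusted p = 0.00246) and Slc25a1 from 16.7 ± 2.25 to 30.5 ± 5.97 CPM (0.90 ± 0.15, adjusted p = 0.0186). The scaled adipocyte level of Fasn was 27.3 CPM in the Ad-Lib and 80.6 CPM in the TAN libraries, that of Me1 6.11 and 33.8 CPM and that of Acaca 4.94 and 17.3 CPM. In endothelial cells with no Adipoq or Car3 UMI Fasn averaged 11.1 ± 2.73 CPM in the Ad-Lib and 31.7 ± 2.45 CPM in the TAN libraries, Me1 5.24 ± 1.89 and 15.7 ± 4.82 CPM, Acaca 14.4 ± 3.54 and 15.5 ± 3.82 CPM and Slc25a1 13.2 ± 1.82 and 14.1 ± 5.07 CPM. The log2 change in this smaller set of cells was 1.55 for Fasn (edgeR adjusted p = 0.0181), 1.63 for Me1 (0.159), 0.19 for Acaca (0.835) and 0.16 for Slc25a1 (0.855).

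Hacd4, a dehydratase of the elongation cycle, was the only pathway gene called lower in TAN in these fits. In endothelial cells it fell from 32.1 ± 3.72 to 16.9 ± 0.791 CPM (log2 change -0.89 ± 0.10 SE, edgeR adjusted p = 0.00232), and it averaged 40.8 ± 7.90 and 21.7 ± 5.02 CPM in endothelial cells with no Adipoq or Car3 UMI, where it was no longer called (adjusted p = 0.241). In macrophages 3 of 38 pathway genes tested were called, where 0.405% of all genes were. Of these, Thrsp and Fasn rose in TAN by 2.43 ± 0.26 and 1.79 ± 0.23 on the log2 scale (adjusted p in edgeR of 0.000174 and 0.00113). The other was Me1, at 1.27 ± 0.451 CPM in the Ad-Lib and 13.8 ± 2.30 CPM in the TAN libraries. It rested on 2 to 8 UMIs per library in Ad-Lib and 17 to 41 in TAN and passed the filter on low counts through the TAN libraries, so its call is not read as support and no p is given. Its fitted log2 change was 3.40 ± 0.31 SE, and 2.56 with cells of several gate genes kept. In macrophages with no Adipoq or Car3 UMI Fasn averaged 7.49 ± 0.862 CPM in the Ad-Lib and 15.3 ± 2.70 CPM in the TAN libraries and was no longer called (edgeR adjusted p = 0.0555), while Me1 averaged 0.627 ± 0.525 and 7.58 ± 1.83 CPM. The scaled adipocyte level of Me1 was 1.08 and 8.21 CPM, and that of Fasn ranged from 3.17 to 8.29 CPM over the Ad-Lib and from 11.1 to 26.5 CPM over the TAN libraries, beside measured levels of 9.54 to 10.4 and 23.1 to 46.9 CPM. Thrsp measured 7.73 ± 2.64 and 40.1 ± 14.8 CPM in macrophages, beside a scaled adipocyte level of 8.68 and 40.5 CPM. In progenitors Thrsp was the only gene called of 44 tested, where 0.748% of all genes were (2.91 ± 1.42 to 11.1 ± 3.12 CPM, edgeR adjusted p = 0.00803), beside a scaled adipocyte level of 4.47 and 16.3 CPM. In T cells (32 tested) and B cells (29 tested) edgeR called 0 pathway genes, where it called 4.53% and 0% of all genes, 2 and 0 had an unadjusted p under 0.05, and DESeq2 called 1 and 0.

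**Figure D5:**
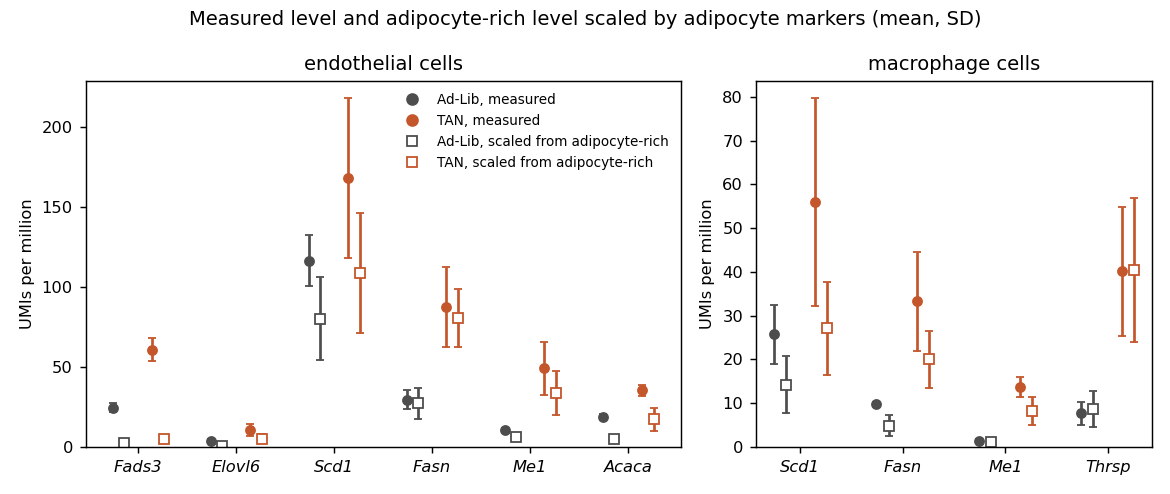
Filled circles give the measured level in CPM and open squares the level of adipocyte-rich droplets scaled by adipocyte markers, as mean and SD of 4 libraries, in endothelial cells (left) and macrophages (right). In TAN the measured and scaled levels were 60.9 and 5.01 CPM for endothelial Fads3, 87.7 and 80.6 CPM for endothelial Fasn and 40.1 and 40.5 CPM for macrophage Thrsp. In endothelial cells with no Adipoq or Car3 UMI, Fasn averaged 11.1 CPM in the Ad-Lib and 31.7 CPM in the TAN libraries. The part of adipocyte RNA in each change was not tested.

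The genes whose pattern over the 48 sums of lineage and library was most like that of a member were searched among 8763 genes by Pearson r of log2(CPM + 1). The sums share libraries, and no p is given. For Fads3 these were Pparg (r = 0.943), Trarg1 (0.934) and Phlda3 (0.927), and for Fads1 they included Cfb (0.945) and Igfbp4 (0.933). Elovl6 was most like Fdft1 (0.855), Acly (0.850) and Pdha1 (0.847). Scd1 was most like Mrap (0.881), Lpgat1 (0.880) and Wfdc21 (0.868), Fads2 like Pard3b (0.889), Olfm2 (0.873) and Cyp26b1 (0.850), and Scd2 like Tmem263 (0.855), Ly6a (0.836) and Fam92a (0.831). Elovl1 was most like Klf3 (0.846), Degs1 (0.844) and Atxn2 (0.832), and Elovl5 like Abcb1a (0.865), Cds2 (0.854) and Arhgap31 (0.839).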

How the data were processed

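Droplet libraries were made from the SVF of 8 iWAT samples (4 Ad-Lib, 4 TAN, by the treatment labels). The deposited values are raw UMI counts per gene and barcode, made by the authors with Cell Ranger (3.0.2 in the processing notes, 6.0.1 in the file headers) on GRCm38. Cells with 700 to 30000 UMIs, 200 to 8000 genes and at most 10% mitochondrial UMIs were kept. Lineage gates needed 1 UMI of the marker (2 of C1qa), no UMI of another gate gene (1 of C1qa was allowed) and Adipoq with Car3 under 0.2% of UMIs. Adipocyte-rich droplets needed at least 5 UMIs and 0.2% of these 2 genes, both seen, with no Pecam1, Cd3e or Cd79a UMI, at most 1 of C1qa and Pdgfra allowed. Cells with several gate genes were left out in place of a doublet caller. Subtypes needed 2 UMIs of their markers and more than of any other subtype.

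Counts were summed per library and lineage (at least 10 cells), scaled to CPM and fitted with edgeR 4.0.16 (quasi-likelihood, TMM, filterByExpr), with Benjamini-Hochberg adjustment over all genes tested. A gene was called at an adjusted p under 0.05 and 1.5-fold. DESeq2 1.42.0, other gates and filters and leaving out libraries were the alternatives. The fits were tested on simulated data. Precision is limited by 4 libraries a group, and a count of 0 allows up to 3 UMIs, for counting error only. Scaling by adipocyte or endothelial markers was added after the data were seen. The members, lists and tests were chosen with earlier results of these data known. Pathway genes are named where called, at most 10 a lineage, and like genes are the 3 of highest r with a mean of at least 20 CPM in some lineage, of which 1 is not reported here. GENCODE release 21 (mouse) gave positions.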

Additional observations from a re-analysis of the deposited data

Results flagged for a closer look

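Of 96 groups of 4 libraries (8 genes, 6 lineages, 2 feeding groups), 6 held a library far from the other 3, where chance alone gives about 4.8. TAN 8 stood high for Fads2 in endothelial cells, at 21.2 CPM against 6.03 to 8.51 CPM, and for Elovl5 in progenitors, at 30.5 CPM against 26.0 to 26.7 CPM. Ad-Lib 7 stood high for Scd2 in macrophages, at 9.24 CPM against 5.54 to 6.08 CPM. In B cells Ad-Lib 5, with 48 cells, stood high for Elovl6 (23.3 CPM from 5 UMIs, against 0 to 1.60 CPM) and for Scd2 (83.7 CPM from 18 UMIs, against 34.9 to 38.9 CPM). Ad-Lib 3 held Fads1 at 2.13 CPM in B cells (4 UMIs), where the other Ad-Lib libraries held 0. A count of 0 in those libraries allows up to 11.7, 14.0 and 26.2 CPM, so this gap is under what they could show.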

How the results depend on the processing

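Fads3 kept its direction in endothelial cells under every alternative run and ranged from a log2 change of 1.25 to 1.56, the highest with the deepest 10% of cells left out. The counts were less stable. In endothelial cells the members called numbered 2 with no filter on low counts, with DESeq2 and with the deepest cells left out (Fads3 and Elovl6), 3 with gates on marker lists (Fads3, Scd1 and Elovl6) and 0 with cells holding an Adipoq or Car3 UMI left out, where the pathway genes called fell from 5 to 1. In macrophages Scd1 was not called with DESeq2, with marker list gates or without cells holding adipocyte RNA (0 members each), and DESeq2 called 1 of the 3 pathway genes, giving no adjusted p for the other 2. In adipocyte-rich droplets 3 members were called with no filter and with a mitochondrial limit of 20%, and 2 with the deepest cells left out and with a gate at 1%. In T cells the pathway genes called numbered 2 with no filter and with marker list gates and 1 with DESeq2 and with cells of several gate genes kept, and in progenitors they numbered 2 with the deepest cells left out. Over all alternatives, the members called higher than in the other lineages ran from 4 to 6 in progenitors (6 as reported), from 4 to 6 in adipocyte-rich droplets (5) and from 3 to 4 in endothelial cells (3). In macrophages they numbered 2 with no filter and with the deepest cells left out, against 1. Neighbour pairs of lineages that passed numbered 26 with cells of several gate genes kept, against 16. Endothelial subtype pairs numbered 1 of 3 with the deepest cells or those with adipocyte RNA left out. The cause of these changes was not tested.

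Leaving out 1 library at a time, the members called ran from 1 to 2 in endothelial cells (Scd1 added without TAN 6, Elovl6 without TAN 8), from 0 to 1 in macrophages (0 without Ad-Lib 1, TAN 2, Ad-Lib 3, TAN 4 or Ad-Lib 7) and from 0 to 1 in progenitors (Elovl6 without Ad-Lib 3). Pathway genes called in T cells ran from 0 to 2 (2 without TAN 2, 1 without Ad-Lib 3 or Ad-Lib 5), and endothelial subtype pairs from 1 to 2 (1 without Ad-Lib 1, TAN 2, TAN 4, Ad-Lib 5, TAN 6 or TAN 8, the pair lost being arterial against venous). Depth limits Fads1, Fads2, Fads3 and Elovl6 in T and B cells, at 0 to 42 UMIs per library. No paired analysis was possible because the labels give the groups no shared replicate numbers.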
